A study of Mus musculus with 6 samples.

Results

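The 47 cell cycle and DNA replication genes described here were named by symbol from textbook roles, and each was found once among the 55335 gene identifiers of the deposited tables by its GRCm38 annotation. They comprised 15 genes of G1 control, from the D-type cyclins to the CDK inhibitors, 16 genes of DNA replication, and 16 genes of G2 and mitosis. RNA was sequenced from 3 bEnd.3 samples given mitochondria isolated from primary mouse astrocytes and resuspended in 100 µl of culture medium, and from 3 given an equal volume of medium without mitochondria, and cells were collected after 24 h. All 6 libraries are labelled as wild-type bEnd.3 endothelial cells, a mouse brain endothelial line immortalised with polyomavirus middle T antigen, grown in high-glucose DMEM with serum. Both groups therefore came from 1 immortalised line, and whether the 3 libraries of a group were separate cultures is not stated, so each p-value here reflects only the variation among these samples, and this may be technical.

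The cell cycle is driven by cyclin-dependent kinases (CDKs) that are active only when bound to a cyclin. In G1, cyclin D with CDK4 or CDK6 and then cyclin E with CDK2 phosphorylate the retinoblastoma protein RB, which frees E2F transcription factors to switch on replication genes. Later in the cycle the MuvB complexes with B-MYB and FOXM1 switch on the genes of mitosis, and in resting cells the DREAM complex holds both sets down. Brain endothelium in the adult divides rarely, whereas bEnd.3 cells divide continuously in culture.

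The promoters of mitotic and replication genes shared one motif and differed in others, and some are shown here because the genes below are described by these groups. Windows of 300 bases, from 250 before to 50 after the transcription start, were available from RefSeq on GRCm38.p6 for 36 of the 47 genes, as 41 windows. The motifs searched on both strands were CCAAT, bound by NF-Y, TTTGAA, the cell cycle genes homology region (CHR) bound by MuvB complexes, and the E2F words TTTCCCGC, TTTCGCGC, TTTGCCGC and TTTGGCGC, which can overlap one another in a palindromic site. Of the 12 mitotic windows, 11 held CCAAT and 9 held a CHR, and the same 9 held both. That was 91.7% and 75.0% of the mitotic windows, against 37.4% and 17.9% of all 32851 mouse windows. Of the 14 replication windows, 11 (78.6%) also held CCAAT, while 2 (14.3%) held a CHR. An E2F word stood in 7 of these 14, which was 50%, in 1 of the 12 mitotic windows and in 2.26% of all windows. The 15 windows of G1 genes held CCAAT in 7, a CHR in 3 and an E2F word in 4. A match describes these letters in the window only and shows neither binding nor use.

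The 4 mitotic windows below belong to Ccnb2 (cyclin B2), Top2a (topoisomerase II alpha), Cdk1 (the mitotic kinase) and Cdc20 (an activator of the anaphase-promoting complex). The windows of Mcm5 and Mcm6, subunits of the replicative helicase, show E2F words, and that of Cdkn2b, a CDK4 and CDK6 inhibitor, is shown because this gene had the smallest p of the 47 genes. All are written 5′ to 3′ on the strand of the gene, with the letters of any searched motif on either strand in capitals.
Ccnb2 (GRCm38.p6, chr9:70421505-70421804, minus strand): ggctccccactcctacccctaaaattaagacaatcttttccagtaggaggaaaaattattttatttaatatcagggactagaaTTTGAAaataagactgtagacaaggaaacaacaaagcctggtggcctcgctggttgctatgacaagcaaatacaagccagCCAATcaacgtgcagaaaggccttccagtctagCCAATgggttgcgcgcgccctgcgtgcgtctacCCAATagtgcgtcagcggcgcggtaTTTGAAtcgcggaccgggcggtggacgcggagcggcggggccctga
Top2a (GRCm38.p6, chr11:99024140-99024439, minus strand): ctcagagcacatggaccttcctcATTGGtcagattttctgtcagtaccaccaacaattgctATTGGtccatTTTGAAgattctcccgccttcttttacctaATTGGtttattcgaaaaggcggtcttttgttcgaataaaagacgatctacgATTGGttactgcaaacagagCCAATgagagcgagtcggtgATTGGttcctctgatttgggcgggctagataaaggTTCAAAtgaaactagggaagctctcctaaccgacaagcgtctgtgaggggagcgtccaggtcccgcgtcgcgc
Cdk1 (GRCm38.p6, chr10:69352863-69353162, minus strand): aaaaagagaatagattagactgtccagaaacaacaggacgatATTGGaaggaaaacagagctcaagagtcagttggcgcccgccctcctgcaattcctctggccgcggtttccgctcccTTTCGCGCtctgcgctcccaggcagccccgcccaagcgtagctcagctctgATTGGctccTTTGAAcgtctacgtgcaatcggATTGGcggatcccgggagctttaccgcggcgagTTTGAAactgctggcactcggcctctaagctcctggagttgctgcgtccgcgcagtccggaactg
Cdc20 (GRCm38.p6, chr4:118437294-118437593, minus strand): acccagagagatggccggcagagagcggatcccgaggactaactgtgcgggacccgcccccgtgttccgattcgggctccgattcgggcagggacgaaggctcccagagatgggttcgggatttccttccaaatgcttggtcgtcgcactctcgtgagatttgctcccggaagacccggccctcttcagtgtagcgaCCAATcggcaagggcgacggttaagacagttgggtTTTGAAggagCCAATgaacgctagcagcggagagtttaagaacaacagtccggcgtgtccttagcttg
Mcm5 (GRCm38.p6, chr8:75109259-75109558, plus strand): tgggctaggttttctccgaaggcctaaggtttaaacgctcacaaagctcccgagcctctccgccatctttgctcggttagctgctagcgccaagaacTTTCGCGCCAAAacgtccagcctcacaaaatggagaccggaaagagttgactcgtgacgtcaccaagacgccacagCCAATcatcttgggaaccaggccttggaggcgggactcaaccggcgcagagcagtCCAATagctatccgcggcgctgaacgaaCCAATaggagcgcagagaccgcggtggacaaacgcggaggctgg
Mcm6 (GRCm38.p6, chr1:128359656-128359955, minus strand): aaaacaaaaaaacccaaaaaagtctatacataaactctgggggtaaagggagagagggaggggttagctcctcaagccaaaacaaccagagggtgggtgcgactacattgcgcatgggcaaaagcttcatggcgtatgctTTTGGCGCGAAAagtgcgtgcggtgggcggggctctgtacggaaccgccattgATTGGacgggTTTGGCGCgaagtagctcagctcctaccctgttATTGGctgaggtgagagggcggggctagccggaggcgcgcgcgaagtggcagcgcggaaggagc
Cdkn2b (GRCm38.p6, chr4:89310983-89311282, minus strand): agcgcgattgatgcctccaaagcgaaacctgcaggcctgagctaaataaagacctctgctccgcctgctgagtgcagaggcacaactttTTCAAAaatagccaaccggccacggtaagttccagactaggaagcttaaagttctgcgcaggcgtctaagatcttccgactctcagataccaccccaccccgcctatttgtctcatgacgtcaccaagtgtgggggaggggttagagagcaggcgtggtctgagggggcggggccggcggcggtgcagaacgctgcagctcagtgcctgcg

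**Figure D1:**
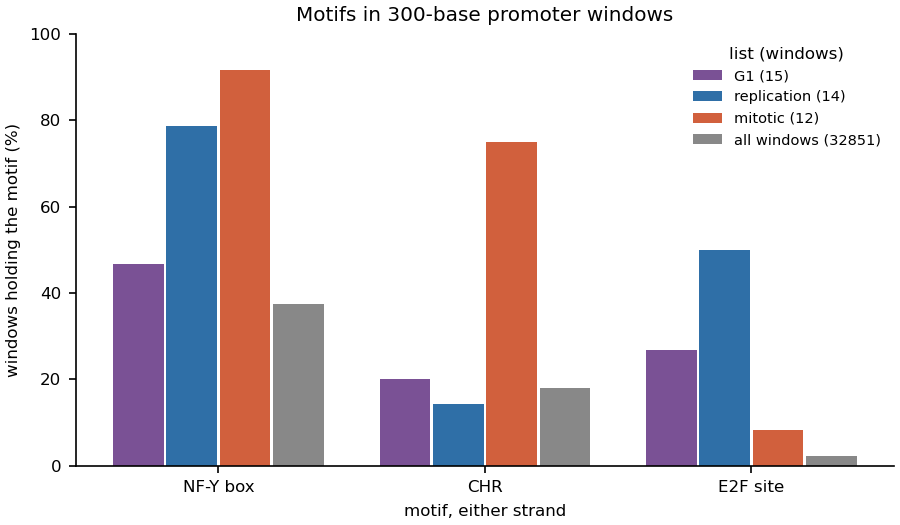
Percentage of 300-base RefSeq promoter windows (y axis, %) that hold an NF-Y box, a CHR or an E2F word on either strand (x axis), for the windows of G1, replication and mitotic genes and for all mouse windows. The CHR stood in 75.0% of mitotic windows against 17.9% of all windows, and E2F words in 50% of replication windows against 2.26% of all windows.

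Values are in FPKM, fragments scaled by transcript length and by library size, so levels can be compared between genes. The values implied 21900000 to 27300000 fragments in the mitochondria libraries and 17100000 to 21200000 in the control libraries. Implied depth thus did not overlap between the groups, but these numbers are approximate and the nearest ones, 21900000 and 21200000, were close. The part of depth in the results was not tested. Of 20 endothelial markers, 8 or 9 reached 1 FPKM in each library. The endothelial list summed to 175 to 188 FPKM in mitochondria libraries and 155 to 166 FPKM in control libraries. The junction genes Cdh5 (0.068 FPKM or less), Pecam1 (0.27 FPKM or less) and Cldn5 (0.13 FPKM or less), defining markers of brain endothelium, were near 0 in all libraries. In contrast, Cd34 averaged 70.2 FPKM and Eng 61.1 FPKM. Cd34 alone had 78.9 to 82.2 FPKM in mitochondria libraries and 58.0 to 62.95 FPKM in control libraries, while Eng overlapped between the groups. Genes of mesenchymal cells were also present, with Col3a1 at 225 FPKM, Pdgfrb at 55.8 FPKM and Pdgfra at 20.5 FPKM on average. Of 14 fibroblast and mural markers, 6 reached 1 FPKM in every library. Their list summed to 378 to 417 FPKM in mitochondria libraries and 429 to 464 FPKM in control libraries. Col1a1 had 81.9 to 87.55 FPKM in mitochondria libraries and 135 to 140 FPKM in control libraries. Pdgfra went the other way, with 22.2 to 23.25 FPKM in mitochondria libraries and 17.9 to 19.3 FPKM in control libraries. A difference in a sum therefore does not show a shift of the whole list. Of 15 astrocyte markers, 4 to 7 reached 1 FPKM per library, with Aqp4 listed at 0 in every library and Gfap at 0.20 FPKM or less. The astrocyte list summed to 86.2 to 89.6 FPKM in mitochondria libraries and 69.4 to 108 FPKM in control libraries, with Glul at 37.3 FPKM and Gja1 at 29.4 FPKM on average, which other cells express. Of 13 microglia and macrophage markers 2 reached 1 FPKM in each library, chiefly Tmem119, while Ptprc (CD45) was listed at 0 throughout, and of 13 neuron and oligodendrocyte markers at most 1 did.

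All 47 genes were expressed and passed the filter of 1 FPKM in at least 3 libraries, and each was above 1 FPKM in all 6. The highest of them was Cdkn2a, at 311 FPKM on average, above 99.4% of the 12639 genes tested. It was followed by Ccnd2 at 121 FPKM, Cdk4 at 83.7 FPKM, Pcna at 67.1 FPKM and Cdkn2b at 48.9 FPKM. The lowest were Cdc25c at 2.64 FPKM, E2f2 at 2.91 FPKM and Pola1 at 2.99 FPKM. The median of the gene means was 12.9 FPKM for G1 genes, 19.2 FPKM for replication genes and 18.7 FPKM for mitotic genes. Mki67, the proliferation antigen Ki-67, averaged 18.4 FPKM in mitochondria libraries and 18.2 FPKM in control libraries.

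After 24 h with mitochondria, none of the 47 genes differed from control at an adjusted p under 0.05 in limma, which called 1.12% of all tested genes (141 genes, 59 higher and 82 lower). Of the 47 genes, 5 had an unadjusted p under 0.05, 4 lower and 1 higher with mitochondria, a share of 10.6%, against 13.9% of all tested genes in either direction and 7.32% in the lower direction. The estimates were small, from −0.35 for Cdkn2b to 0.20 for Foxm1, as mitochondria minus control in units of log2(FPKM + 1), a scale that shrinks the change of genes with low values. The median absolute log2 change was 0.078, beside 0.085 over all tested genes. The 95% interval of the change in FPKM + 1 lay within 1.5-fold in both directions for 45 of the 47 genes. It lay within 2-fold for all 47 and included 0 for 42. These are not bounds on the fold of FPKM itself, which is larger in genes with low values. The log2 change of E2f2 was −0.289 here and −0.393 with a pseudocount of 0.01. The exceptions to the 1.5-fold bound on FPKM + 1 were Foxm1, from −0.48 to 0.88, and Cdk1, from −0.59 to 0.23.

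The estimates were more often below 0 than above it. The log2 change was below 0 for 33 of the 47 genes, 70.2%, against 52.0% of all tested genes. That number was 31 under quantile normalization, 25 without mitochondria replicate 3 and 39 without control replicate 3. By group it was below 0 for 9 of 15 G1 genes, 12 of 16 replication genes and 12 of 16 mitotic genes. The median log2 change was −0.05 for G1 genes, −0.09 for replication genes and −0.05 for mitotic genes, beside −0.01 for all tested genes. Without mitochondria replicate 3 these medians were −0.003 for G1, −0.056 for replication and 0.012 for mitotic genes, and without control replicate 3 they were −0.06, −0.144 and −0.142 in the same order. These genes vary together between libraries, so the counts of 33 or 12 are not independent observations. The 3 mitochondria values lay wholly above or wholly below the 3 control values in 8 of the 47 genes, 17%, against 21.0% of all tested genes, and wholly below in 7 of the 47, against 11.4% of all.

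**Figure D2:**
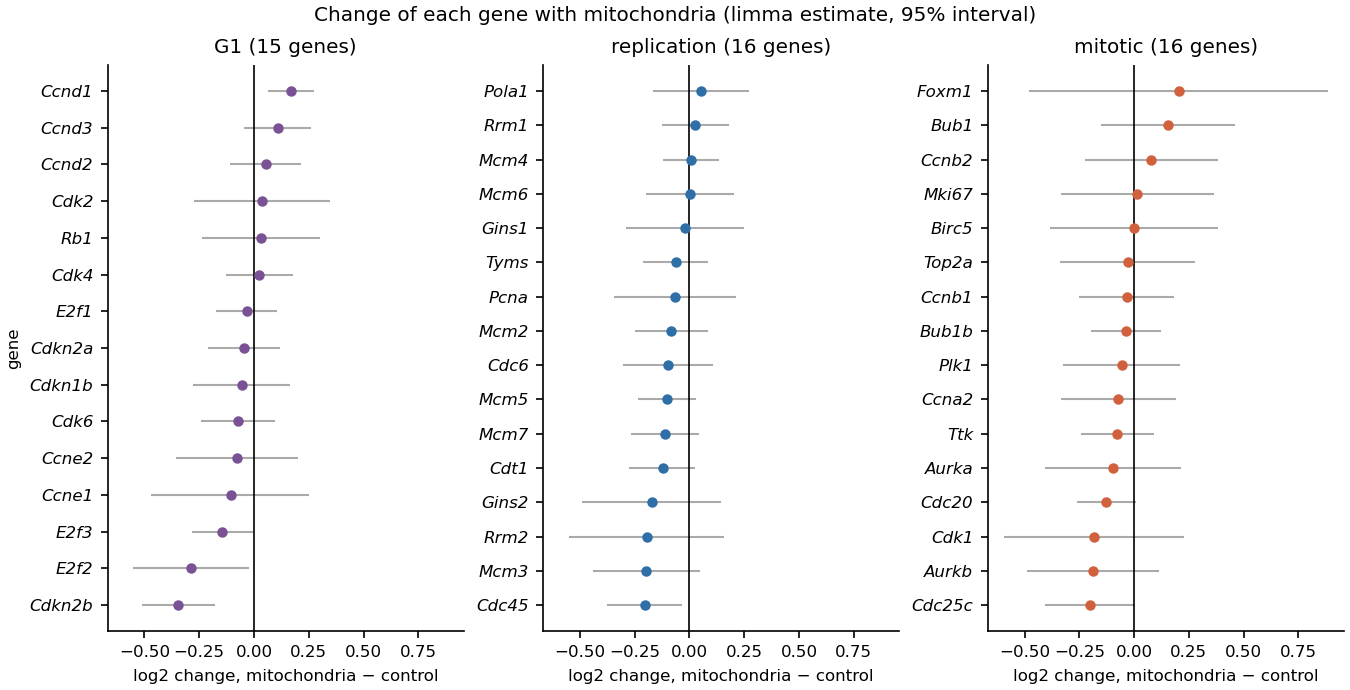
Estimated log2 change, mitochondria minus control, in log2(FPKM + 1) units (x axis) with its 95% interval from limma for each of the 47 genes (y axis), in 3 groups sorted by estimate. The intervals of 42 genes include 0, and Cdkn2b has the lowest estimate, −0.35.

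The libraries numbered 3 stood apart in both groups. Replicate 3 held the lowest value of its group in mitochondria and in control cells alike for 30 of the 47 genes, 63.8%, against 22.9% of all tested genes, a pattern chosen for description after the values were seen. It was so for 13 of 16 mitotic, 11 of 16 replication and 6 of 15 G1 genes. The median ratio of replicate 3 to the mean of replicates 1 and 2 over the mitotic genes was 0.822 in mitochondria cells and 0.814 in control cells. Over the replication genes it was 0.920 in mitochondria cells and 0.902 in control cells, over the G1 genes 0.938 in mitochondria cells and 0.944 in control cells, and over all tested genes 0.991 in mitochondria cells and 0.987 in control cells. On the log2 scale the mitotic genes of replicate 3 lay −0.26 (mitochondria) and −0.28 (control) from the other libraries of their group, whereas the median difference of these genes between mitochondria and control cells was −0.05. In bulk RNA, fewer cells in a phase and less RNA of these genes per cell cannot be told apart.

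The pattern did not hold for the other 9 G1 genes, nor for Cdc45, Cdt1, Gins2, Pola1, Tyms, Cdc20, Mki67 and Foxm1. Cdkn2b and Rb1 were highest in replicate 3 of both groups, and in Ccnd1, Ccnd2, Ccnd3, E2f3, Cdk6, Cdk2 and Cdkn2a replicate 3 was lowest in 1 group or in neither. Implied depth in the libraries numbered 3 was 24100000 fragments in mitochondria cells, between those of the other 2, and 21200000 in control cells, the deepest of its group. Within each group the summed fibroblast and mural markers were highest there, at 417 FPKM in mitochondria cells and 464 FPKM in control cells. The microglia list, nearly all Tmem119, was also highest there, at 212 FPKM in mitochondria cells and 275 FPKM in control cells. So was the endothelial list, at 188 FPKM in mitochondria cells and 166 FPKM in control cells. The astrocyte list was highest there by little, at 89.6 FPKM in mitochondria cells, beside 86.2 and 86.7 FPKM in replicates 1 and 2. In control replicates 1 to 3 it was 106, 69.4 and 108 FPKM, and its gene Gja1 alone was 45.7, 11.7 and 46.0 FPKM. A low replicate 3 was not limited to cell cycle genes. The summed level of 10 housekeeping genes was 3141, 3206 and 3032 FPKM in mitochondria replicates 1 to 3. In control replicates 1 to 3 it was 3571, 3266 and 2723 FPKM, so replicate 3 was lowest in both groups. The part of depth and of these lists in the pattern was not tested. Without both libraries numbered 3, a setting chosen after the data were seen, no gene of the 47 was called in limma and 37 of all genes were. At an unadjusted p under 0.05 it gave 10 of the 47 genes, 7 of them lower, where 15.1% of all tested genes passed. The mitochondria values lay wholly below the control values in 23 of the 47 genes, where 26.9% of all tested genes did so with 2 libraries a group.

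**Figure D3:**
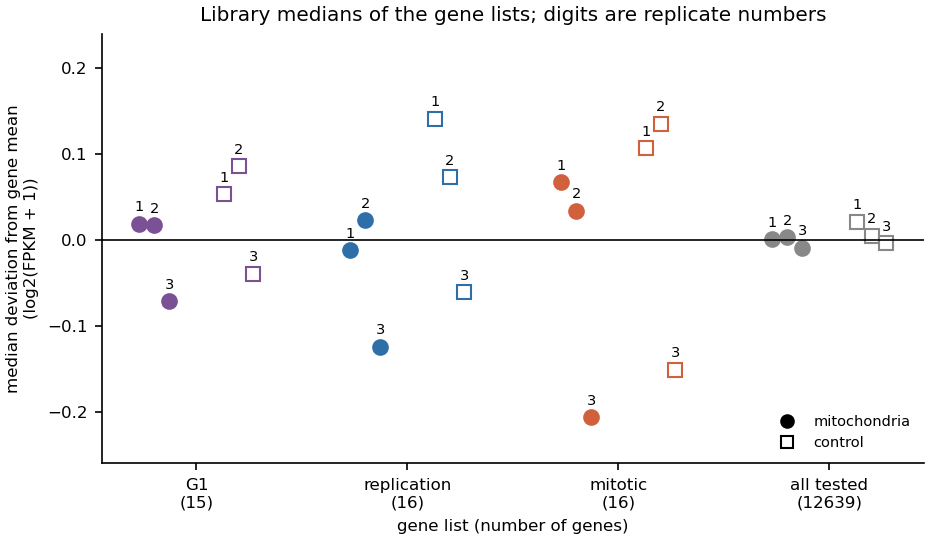
Median over the genes of a list of the deviation of log2(FPKM + 1) from each gene's mean over 6 libraries (y axis), for the 3 gene groups and all tested genes (x axis). Filled circles are mitochondria libraries, open squares control libraries, and digits are replicate numbers. Replicate 3 is the lowest of its group in each of the 3 gene groups, with mitotic medians of −0.21 in mitochondria cells and −0.15 in control cells.

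**Figure D4:**
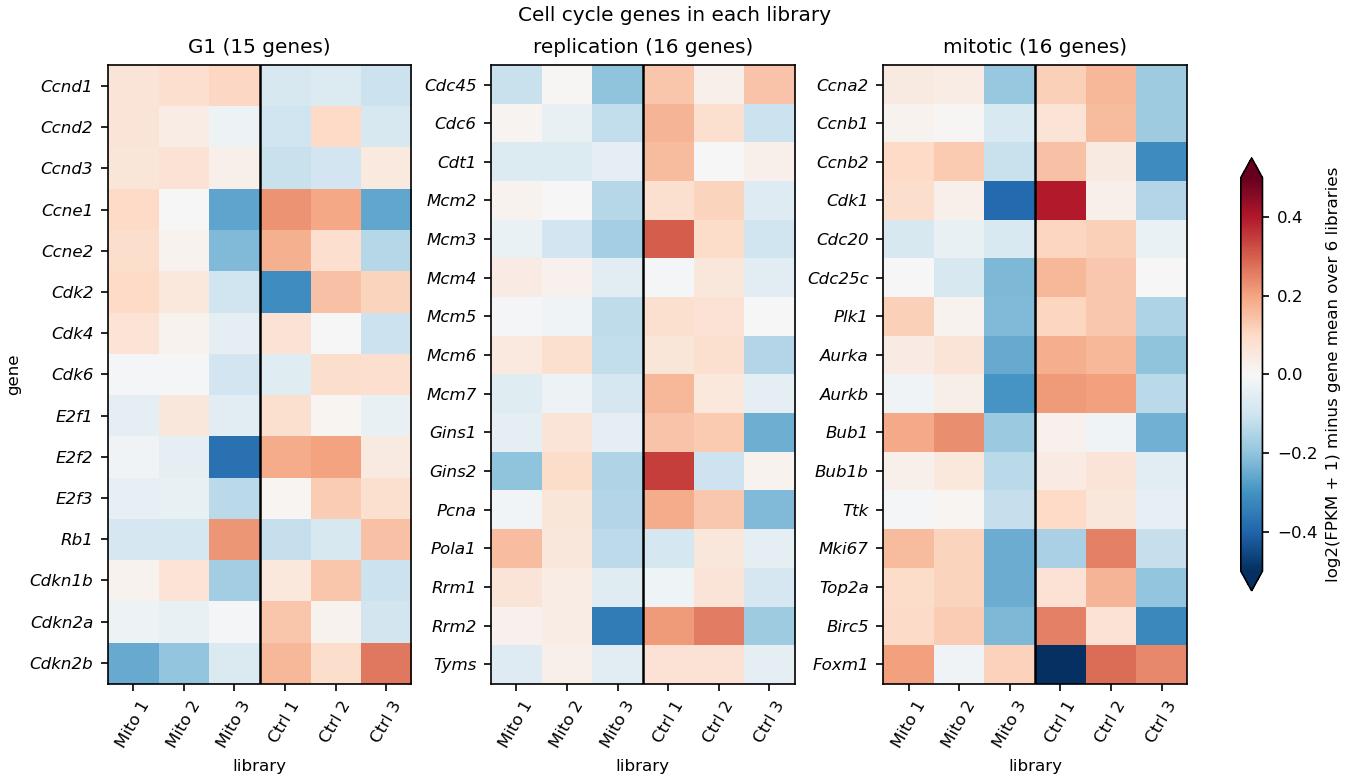
Deviation of log2(FPKM + 1) from the gene's mean over 6 libraries (colour, red above and blue below, cut at 0.5) for each gene (rows) and library (columns, mitochondria left of the line and control right of it). Replicate 3 of both groups is blue for most replication and mitotic genes, while Cdkn2b is blue in the mitochondria columns and red in the control columns.

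Among G1 genes the CDK inhibitor Cdkn2b had the smallest limma p and the largest change. Cdkn2b encodes p15INK4b, which blocks CDK4 and CDK6 and is induced by TGF-beta in many cell types. It had 40.6, 42.2 and 46.1 FPKM in mitochondria libraries and 54.6, 51.5 and 58.4 FPKM in control libraries. Every mitochondria value lay below every control value, and within each group replicate 3 was the highest. The means were 42.9 ± 2.83 FPKM with mitochondria and 54.8 ± 3.45 FPKM in control (SD, n = 3 each), a log2 change of −0.35 (SE 0.07, 95% interval −0.51 to −0.18). The unadjusted p was 0.00185, the smallest of the 47 genes, and the limma adjusted p over all genes was 0.0868, which does not pass. With libraries weighted by quality the adjusted p was 0.0183, and over 18 alternative settings it ranged from 0.0183 to 0.293. That setting gave control replicate 2 a weight of 3.33 and control replicate 1 a weight of 0.381, and it called 8.57% of all genes.

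The other product of this locus behaved differently in level and in spread. Cdkn2a (ENSMUSG00000044303, chromosome 4, 89274471 to 89294653) lies beside Cdkn2b (ENSMUSG00000073802, chromosome 4, 89306299 to 89311039) and encodes both p16INK4a and p19ARF from separate first exons, which a value per gene does not separate. It had 305, 303 and 309 FPKM in mitochondria libraries and 342, 315 and 291 FPKM in control libraries. The groups overlapped, with all mitochondria values inside the control range. Its log2 change was −0.05 (95% interval −0.21 to 0.12, limma adjusted p = 0.825). Cdkn1b, which encodes the CDK2 inhibitor p27, had 9.23, 9.59 and 7.94 FPKM in mitochondria libraries and 9.47, 10.1 and 8.37 FPKM in control libraries. Those ranges overlapped, and replicate 3 was lowest in both groups (log2 change −0.06, limma adjusted p = 0.838).

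The D-type cyclins, which carry growth factor signals into the cycle, all had positive estimates. Ccnd1 (cyclin D1; ENSMUSG00000070348, chromosome 7, 144929931 to 144939925) had 37.6, 38.2 and 38.7 FPKM in mitochondria libraries and 33.99, 34.3 and 33.3 FPKM in control libraries. All mitochondria values lay above all control values, and the spread within each group was small. The means were 38.2 ± 0.524 FPKM with mitochondria and 33.9 ± 0.490 FPKM in control (SD, n = 3 each), 12.7% higher with mitochondria, a log2 change of 0.17 (SE 0.04, 95% interval 0.06 to 0.27). The unadjusted p was 0.00671 and the limma adjusted p was 0.151, with a range of 0.0367 to 0.430 over 18 alternative settings. Only the weighting of libraries brought it under the threshold among those settings. Ccnd2 (cyclin D2) had 127, 124 and 119 FPKM in mitochondria libraries and 113, 130 and 114 FPKM in control libraries, which overlapped (log2 change 0.05, 95% interval −0.11 to 0.22, limma adjusted p = 0.786). Ccnd3 (cyclin D3), the lowest of the 3, averaged 7.52 ± 0.141 FPKM with mitochondria and 6.92 ± 0.498 FPKM in control (limma adjusted p = 0.524).

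Their partner Cdk4 had 87.7, 84.7 and 80.9 FPKM in mitochondria libraries and 88.0, 83.5 and 77.6 FPKM in control libraries. The groups overlapped almost wholly, with replicate 3 lowest in both (log2 change 0.02, 95% interval −0.13 to 0.18, limma adjusted p = 0.910). Cdk6, the other partner, was expressed at 3.71 FPKM with mitochondria and 3.96 FPKM in control. Rb1, which encodes RB, the protein that these kinases phosphorylate, had 3.49, 3.48 and 4.54 FPKM in mitochondria libraries and 3.40, 3.51 and 4.27 FPKM in control libraries. It was high in replicate 3 of both groups, which overlapped (limma adjusted p = 0.939).

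The cyclin that acts after them, cyclin E1, varied more between libraries than between groups. Ccne1 had 18.3, 17.1 and 14.1 FPKM in mitochondria libraries and 20.1, 19.7 and 14.1 FPKM in control libraries. Replicate 3 was low in both, and the log2 change was −0.11 (95% interval −0.47 to 0.25, limma adjusted p = 0.808). Ccne2 (cyclin E2) averaged 2.95 ± 0.432 FPKM with mitochondria and 3.17 ± 0.462 FPKM in control, and Cdk2, the kinase of both, 7.81 ± 0.622 FPKM with mitochondria and 7.67 ± 1.44 FPKM in control (SD, n = 3 each).

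Of the activator E2F factors, E2f2 and E2f3 had lower values with mitochondria and E2f1 did not separate. E2f2 had 2.83, 2.76 and 2.00 FPKM in mitochondria libraries and 3.42, 3.46 and 3.00 FPKM in control libraries. The groups did not overlap, although the gap of mitochondria replicate 1 to control replicate 3 was small (log2 change −0.29, 95% interval −0.55 to −0.02, unadjusted p = 0.0369, limma adjusted p = 0.317). Without mitochondria replicate 3 the log2 change of E2f2 was −0.175. E2f3 had 12.5, 12.5 and 11.6 FPKM in mitochondria libraries and 12.9, 14.1 and 13.6 FPKM in control libraries. These did not overlap either (log2 change −0.14, unadjusted p = 0.0453, limma adjusted p = 0.345). The unadjusted limma p of E2f3 was 0.0628 with median-of-ratios scaling, 0.086 with quantile normalization and 0.0582 with TPM. It was 0.137 without mitochondria replicate 3, and it stayed under 0.05 with the other pseudocounts and filters. The log2 change of E2f3 ranged from −0.175 to −0.108 over 18 alternative settings. E2f1 had 18.4, 19.9 and 18.3 FPKM in mitochondria libraries and 20.2, 19.2 and 18.6 FPKM in control libraries, which overlapped (log2 change −0.03, 95% interval −0.17 to 0.11, limma adjusted p = 0.860).

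**Figure D5:**
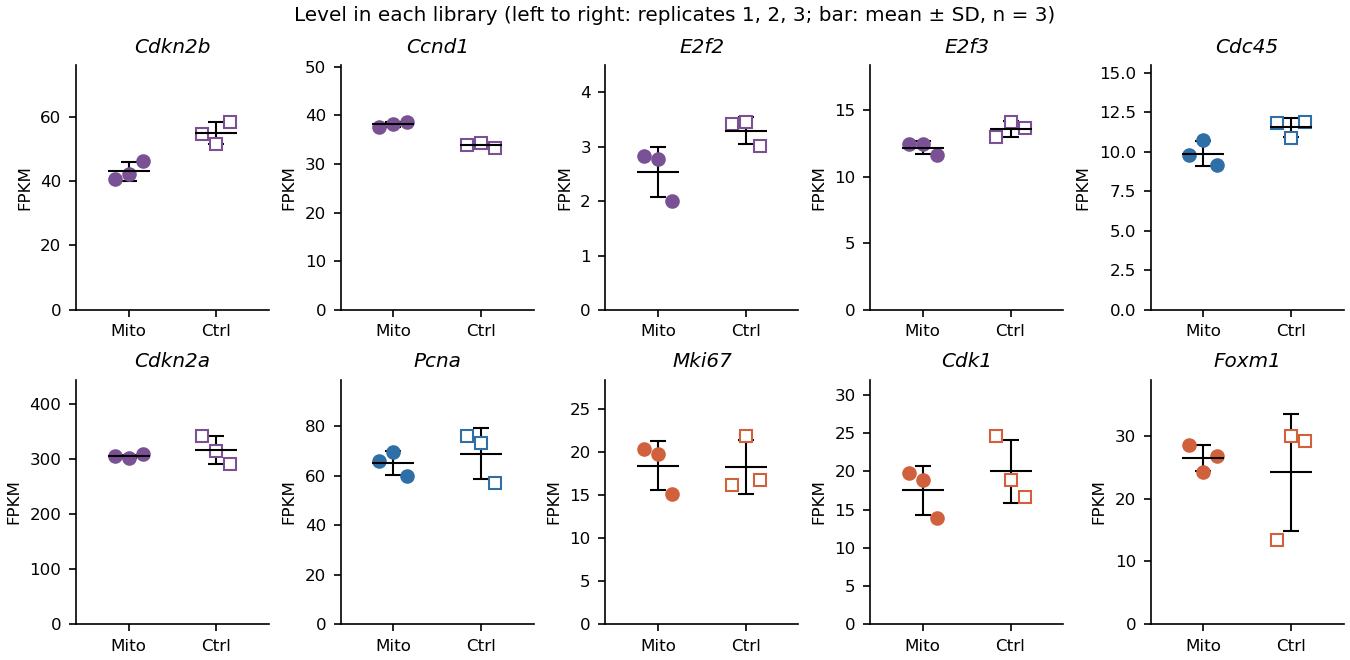
FPKM (y axis, from 0) in each library for 10 genes, with mitochondria libraries left and control libraries right, replicates 1 to 3 from left to right within a group, and the mean ± SD as bars (n = 3). The groups do not overlap for Cdkn2b, Ccnd1, E2f2, E2f3 and Cdc45, and they overlap for Cdkn2a, Pcna, Mki67, Cdk1 and Foxm1.

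Among replication genes the helicase factor Cdc45 had the smallest p. Cdc45 joins the MCM ring and the GINS complex to make the active helicase that unwinds DNA. It had 9.80, 10.7 and 9.15 FPKM in mitochondria libraries and 11.9, 10.9 and 11.9 FPKM in control libraries. The groups did not overlap, with mitochondria replicate 2 and control replicate 2 close to each other (log2 change −0.20, 95% interval −0.38 to −0.03, unadjusted p = 0.0267, limma adjusted p = 0.281). Its GINS partners Gins1 and Gins2 averaged 5.56 ± 0.299 and 7.95 ± 1.00 FPKM with mitochondria and 5.69 ± 0.974 and 9.14 ± 1.68 FPKM in control (SD, n = 3 each), and both overlapped.

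The loading factors Cdc6 and Cdt1, which place the MCM ring on origins in G1, averaged 5.36 ± 0.301 and 5.66 ± 0.0507 FPKM with mitochondria and 5.82 ± 0.658 and 6.26 ± 0.429 FPKM in control. Cdt1 did not overlap between groups, at a limma adjusted p of 0.449. The 6 genes of the MCM ring averaged from 21.95 FPKM (Mcm5) to 44.9 FPKM (Mcm4) with mitochondria and from 23.6 FPKM (Mcm5) to 44.7 FPKM (Mcm4) in control. Replicate 3 was lowest in both groups for all 6. Mcm5 was the 1 of them without overlap, with 22.6, 22.5 and 20.8 FPKM in mitochondria libraries and 24.1, 23.99 and 22.8 FPKM in control libraries (log2 change −0.10, limma adjusted p = 0.477). Mcm2 had 34.2, 33.8 and 30.5 FPKM in mitochondria libraries and 35.8, 36.5 and 32.2 FPKM in control libraries, an overlap of the groups (log2 change −0.08, limma adjusted p = 0.667). The largest estimate of the ring was that of Mcm3, −0.20 (95% interval −0.44 to 0.05, limma adjusted p = 0.453), and that of Mcm6 was the smallest, 0.003.

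Pcna, the sliding clamp of DNA polymerases, had 66.1, 69.8 and 60.2 FPKM in mitochondria libraries and 76.2, 73.4 and 57.1 FPKM in control libraries. Control replicate 3 was the lowest of all, so the groups overlapped (log2 change −0.07, 95% interval −0.35 to 0.21, limma adjusted p = 0.854). Pola1, the catalytic subunit of the primase-associated polymerase alpha, was at 3.07 ± 0.399 FPKM with mitochondria and 2.92 ± 0.207 FPKM in control. Rrm2, the regulated subunit of ribonucleotide reductase, which makes deoxynucleotides, had 34.3, 34.7 and 26.3 FPKM in mitochondria libraries and 39.4, 40.6 and 29.8 FPKM in control libraries. Replicate 3 was low in both groups (log2 change −0.20, 95% interval −0.55 to 0.16, limma adjusted p = 0.626), and the log2 change of Rrm2 ranged from −0.33 without control replicate 3 to −0.07 without mitochondria replicate 3. Its partner Rrm1 averaged 15.8 FPKM with mitochondria and 15.5 FPKM in control, and Tyms, thymidylate synthase, 8.49 FPKM with mitochondria and 8.92 FPKM in control, with limma adjusted p-values of 0.895 and 0.712.

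None of the 16 mitotic genes reached an unadjusted p under 0.05. Cdc25c, the phosphatase that activates CDK1, came nearest, at 2.39 ± 0.264 FPKM with mitochondria and 2.89 ± 0.238 FPKM in control (SD, n = 3 each, log2 change −0.20, unadjusted p = 0.0551, limma adjusted p = 0.372). Cdc20, the anaphase activator, was the 1 mitotic gene without overlap, with 35.7, 36.9 and 35.8 FPKM in mitochondria libraries and 40.8, 41.1 and 37.0 FPKM in control libraries. Control replicate 3 lay close to the mitochondria values (log2 change −0.13, 95% interval −0.26 to 0.01, limma adjusted p = 0.391). Its promoter window, shown above, holds CCAAT and a CHR like those of most mitotic genes here.

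Cdk1, the kinase that drives entry into mitosis, had 19.7, 18.9 and 13.9 FPKM in mitochondria libraries and 24.6, 18.8 and 16.6 FPKM in control libraries. Within-group differences exceeded that between the means, 17.5 ± 3.15 FPKM with mitochondria and 20.03 ± 4.14 FPKM in control (limma adjusted p = 0.704). Its cyclin partner Ccnb1 had 21.7, 21.5 and 20.3 FPKM in mitochondria libraries and 22.5, 24.1 and 18.9 FPKM in control libraries, an overlap (log2 change −0.03, 95% interval −0.25 to 0.18, limma adjusted p = 0.913). Ccnb2 averaged 31.5 ± 2.87 FPKM with mitochondria and 29.9 ± 4.97 FPKM in control, and Ccna2, cyclin A2, 16.5 ± 1.58 FPKM with mitochondria and 17.4 ± 2.29 FPKM in control (SD, n = 3 each).

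Markers of proliferation gave overlapping values. Mki67 had 20.4, 19.7 and 15.1 FPKM in mitochondria libraries and 16.2, 21.9 and 16.7 FPKM in control libraries (log2 change 0.01, 95% interval −0.34 to 0.36, limma adjusted p = 0.981). Top2a, which untangles sister chromatids, had 34.4, 34.9 and 26.9 FPKM in mitochondria libraries and 33.9, 36.4 and 27.9 FPKM in control libraries. The 3 Top2a values of each group lay close to those of the other (log2 change −0.03, 95% interval −0.34 to 0.28, limma adjusted p = 0.952). Birc5 (survivin) was at 14.9 ± 2.03 FPKM with mitochondria and 15.01 ± 3.14 FPKM in control.

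The mitotic kinases and checkpoint genes did not separate the groups either. Plk1, Aurka and Aurkb, kinases of the spindle and of cytokinesis, averaged 27.9, 17.9 and 8.46 FPKM with mitochondria and 29.0, 19.2 and 9.80 FPKM in control. Bub1, Bub1b and Ttk, kinases and a kinase relative of the spindle checkpoint, averaged 9.33, 30.3 and 3.76 FPKM with mitochondria and 8.22, 31.1 and 4.02 FPKM in control. The limma adjusted p-values of these 6 genes lay between 0.574 (Aurkb) and 0.874 (Plk1).

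Foxm1, the transcription factor of the mitotic programme, had the largest positive estimate and the widest interval. It had 28.5, 24.3 and 26.8 FPKM in mitochondria libraries and 13.5, 30.0 and 29.3 FPKM in control libraries. A single value, that of control replicate 1, was low, and the other control values lay above all mitochondria values. The log2 change was 0.20 (95% interval −0.48 to 0.88, limma adjusted p = 0.807) and was −0.16 without control replicate 1 (limma adjusted p = 0.421). Of the other mitotic genes, Mki67 alone was also below its own mean over all libraries there. Foxm1 overlaps Tex52 and Gm44596 on the same strand, and 1.96% of the 31-base words of its transcripts also occur in them.

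Other genes of the same pathways were read from lists of 26 further G1 and E2F regulators, 43 replication genes and 53 mitotic genes. Of the 119 of these that were tested, none was called in limma and 3 had an unadjusted p under 0.05, a share of 2.52%, against 13.9% of all tested genes. The groups did not overlap in 7 of the 119, 5.88%, against 21.0% of all tested genes. The log2 change was below 0 for 16 of 25 further G1 genes, 29 of 43 replication genes and 40 of 52 mitotic genes, with medians of −0.04, −0.05 and −0.05. These were 64%, 67.4% and 76.9% of the lists, against 52.0% of all tested genes. Replicate 3 was lowest in both groups for 42 of the 52 mitotic genes (80.8%) and 30 of the 43 replication genes (69.8%). It was so for 10 of the 25 further G1 genes (40%), against 22.9% of all tested genes.

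Among the further G1 genes Btg2, an antiproliferative gene, had the smallest p, with 13.5, 13.5 and 12.5 FPKM in mitochondria libraries and 16.7, 17.8 and 15.8 FPKM in control libraries. Its groups did not overlap (log2 change −0.33, 95% interval −0.48 to −0.17, limma adjusted p = 0.0799). Skp2, which targets p27 for breakdown, averaged 5.05 ± 0.524 FPKM with mitochondria and 3.58 ± 1.25 FPKM in control, Lin54, the DNA-binding subunit of MuvB, 3.67 ± 0.670 FPKM with mitochondria and 4.68 ± 0.594 FPKM in control, and Cdkn2c, the CDK inhibitor p18, 22.3 ± 2.19 FPKM with mitochondria and 24.99 ± 1.18 FPKM in control (SD, n = 3 each). These last 3 genes had limma adjusted p-values of 0.365 to 0.442.

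In the replication list Cdc7, the kinase that fires origins, averaged 7.65 ± 0.637 FPKM with mitochondria and 9.28 ± 0.508 FPKM in control (log2 change −0.25, limma adjusted p = 0.204). Tipin, Rpa2 and Chaf1a, genes of fork protection, single-strand binding and chromatin assembly, followed with means of 11.4, 8.01 and 10.7 FPKM with mitochondria and 13.3, 8.84 and 11.6 FPKM in control. None of these 4 genes overlapped between groups. In the whole replication list 5 of 43 genes did not overlap, 11.6%, against 21.0% of all tested genes. The limma adjusted p-values of Tipin, Rpa2 and Chaf1a lay between 0.360 and 0.416. In the mitotic list Wee1, the kinase that holds CDK1 inactive, had 5.95, 6.79 and 7.15 FPKM in mitochondria libraries and 5.54, 5.31 and 5.85 FPKM in control libraries, without overlap (log2 change 0.21, limma adjusted p = 0.293). Spc24, Racgap1 and Kif2c, genes of the kinetochore, of cytokinesis and of microtubule depolymerisation, averaged 9.27, 35.3 and 8.86 FPKM with mitochondria and 10.5, 38.4 and 9.98 FPKM in control, with limma adjusted p-values of 0.431 to 0.508.

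Reads of some of the 47 genes may have been shared with near-identical copies. In 9 of them more than 5% of the 31-base words of the annotated transcripts also occur in other genes, such as Ccnb1-ps, Pcna-ps2 and Plk-ps1. The shares were 27.7% for Ccnb1, 26.8% for Mcm7, 25.5% for Cdc20, 23.3% for Pcna, 14.8% for Plk1, 12% for Rrm2, 9.82% for Tyms, 8.78% for Cdc6 and 5.26% for Mcm4. The levels of these genes are therefore less certain, but the shares do not measure by how much, and this was not tested. Cdkn2a, Cdkn2b, Ccnd1, E2f2 and E2f3 shared no such word with another gene.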

How the data were processed

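The deposited values were read as FPKM per gene, as computed by the authors, because they sum to 281433 to 297838 per library, are not whole numbers and StringTie is named. The submitters' processing notes name StringTie 1.3.1c, STAR 2.5.3a, FastQC 0.11.5 and the builds mm10 and GRCm38, with no roles given, and per the labels' protocols the libraries were stranded mRNA libraries. Of 55335 identifiers, 55154 matched GENCODE M21, and 25970 were at 0 in every library.

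Genes that reached 1 FPKM in 3 or more libraries were kept, and log2(FPKM + 1) was tested with limma 3.58.1 in R 4.3.3, with group as the only term, trend and robust options, two-sided p-values and Benjamini-Hochberg adjustment over all 12639 genes. A gene was called at an adjusted p under 0.05. The procedure was tested on simulated data, and no error rate or power from that test is reported here. Count models were not used, since whole reads could not be recovered: at the best-matching depth only 26.6% to 28.6% of low values lay within 0.02 of a whole number, so the implied fragment numbers are approximate and no counting intervals are given. How FPKM was scaled bears on every comparison between libraries, so median-of-ratios scaling, quantile normalization and TPM were tried, along with other pseudocounts and filters, plain empirical Bayes, array weights, leaving out genes of mitochondrial DNA, a replicate block and leaving out each library.

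The genes, lists, motifs and tests were chosen with earlier results of these data known. Values in every library are given for genes with an unadjusted p under 0.05 and for 18 listed ones, and of each list of further pathway genes the 4 with the smallest p are named. Promoter windows came from RefSeq on GRCm38.p6.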

Additional observations from a re-analysis of the deposited data

How the results depend on the processing

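No gene of the 47 was called in 17 of the 18 alternatives. Array weights called 2, both of G1 (Ccnd1 and Cdkn2b), 4 further pathway genes (Btg2, Cdc7, Lin54 and Skp2) and 1083 of all genes, and gave 10 of the 47 at an unadjusted p under 0.05, where 27% of all genes passed. All genes called numbered 13 with no filter, 37 without both libraries numbered 3 and 14 to 88 without single libraries (141 as reported). Genes of the 47 at an unadjusted p under 0.05 numbered 10 without both libraries numbered 3 (15.1% of all genes) and 3 to 11 without single libraries (9.78% to 16% of all genes), with 11 when control replicate 3 was left out (16%). Those without overlap numbered 26 without both libraries numbered 3, where 49% of all genes did not overlap, and 9 to 25 without single libraries, where 27.1% to 36.8% did not, since fewer libraries overlap less often. Further pathway genes called numbered 0 to 1 without single libraries: without mitochondria replicate 1 it was Fen1, a flap nuclease gene named after its values were seen, with 11.7, 38.7 and 36.2 FPKM in mitochondria libraries and 12.03, 15.5 and 15 FPKM in control libraries. Without single libraries the median log2 change ranged from −0.069 to −0.003 for G1, −0.144 to −0.043 for replication and −0.142 to 0.012 for mitotic genes. Signs reversed under array weights for Ccnd2 (−0.022), Mki67 (−0.096) and Foxm1 (−0.076) and under quantile normalization for Top2a (0.002). Without single libraries the log2 change crossed 0 for Cdk4 (−0.023 to 0.067), Cdkn1b (−0.125 to 0.016), Cdkn2a (−0.102 to 0.014), Rb1 (−0.07 to 0.112), Pcna (−0.195 to 0.01), Ccnb1 (−0.131 to 0.038), Mki67 (−0.063 to 0.145), Top2a (−0.135 to 0.088) and Foxm1 (−0.159 to 0.392). It moved by over 1.5 times without changing sign for E2f1 (−0.069 to −0.001), E2f2 (−0.352 to −0.175), Ccne1 (−0.263 to −0.003), Cdk1 (−0.3 to −0.029), Mcm2 (−0.136 to −0.032) and Rrm2 (−0.334 to −0.07), among others. The cause was not tested. Over all tested genes, same-numbered libraries correlated at 0.102, 0.046 and 0.300 in their deviations from the group means. The numbers were therefore not taken as pairs, and of same-numbered libraries only those numbered 3 correlated best with each other. Over the 47 genes these correlations were −0.02, −0.052 and 0.64. There mitochondria replicate 1 correlated with control replicate 2 at 0.571, and mitochondria replicate 2 with control replicate 1 at 0.585. With the replicate block 56 of all genes, none of the 47 genes and 8 of the 47 at an unadjusted p under 0.05 were found, where 16.8% of all genes passed.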
